A study of Mus musculus with 18 samples.

Results

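Cerebellar granule neurons are small excitatory cells that pass input from mossy fibres to Purkinje cells, molecular layer interneurons and Golgi cells. Their identity is carried by a set of transcription factors and by receptor subunits and secreted synaptic proteins that few other cerebellar cells make. The 10 genes described here are of this kind, apart from the calcium buffer gene *Calb2*. They were listed by symbol: *Gabra6*, *Cbln1*, *Cbln3*, *Neurod1*, *Neurod2*, *Zic1*, *Zic2*, *Etv1*, *Pax6* and *Calb2*. They are 10 of the 54752 genes in the RNA files, and all 10 are among the 22523 genes in the footprint files. *Gabra6* encodes the α6 subunit of the GABA-A receptor, the subunit through which granule neurons respond to Golgi cell inhibition. *Cbln1* encodes a secreted cerebellin that binds presynaptic neurexins at the synapses on Purkinje cells, and *Cbln3* encodes a partner that assembles with it. *Neurod1* and *Neurod2* encode basic helix-loop-helix factors of differentiating neurons. *Zic1* and *Zic2* encode zinc finger factors of the granule lineage, *Etv1* an ETS factor of maturing granule neurons and *Pax6* a paired-box factor. *Calb2* encodes the calcium buffer calretinin, which granule neurons and unipolar brush cells both make.

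Cerebella of 3-week-old mice were measured by RNA sequencing and by ribosome profiling. The groups are B6J, B6J.*Gtpbp1*-/- and B6J-*Gtpbp2*-/-, with 3 libraries per group and assay, each of an assay from a separate animal. Whether RNA and footprint libraries share animals is not given in the sources used here, and sex read from Y-linked genes differs between same-numbered libraries, such as B6J replicate 1 (female in RNA, male in footprints). GTPBP1 and GTPBP2 are GTPases linked to the release of stalled ribosomes, and all 3 groups carry the B6J mutation in *n-Tr20*, a tRNA that reads AGA codons. In the congenic *Gtpbp1* line exon sequence was exchanged for a PGK-Neo cassette, and the *Gtpbp2* line carries the nmf205 point mutation. Library totals were 37794333 to 52114145 estimated counts in RNA and 3630823 to 10442573 counts in footprints. All RNA libraries are labelled as 1 batch and all footprint libraries as another, so assay and batch cannot be told apart. Both comparisons with B6J use the same 3 control libraries of an assay, and their values are given side by side.

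The genotype labels were read first from the RNA of the mutated genes, in CPM (counts scaled to library size) of replicates 1 to 3. *Gtpbp1* RNA was 70.7, 77.6 and 66.5 in B6J, 44.2, 41.7 and 43.8 in B6J.*Gtpbp1*-/-, and 58.8, 72.3 and 65.8 in B6J-*Gtpbp2*-/-. Every B6J.*Gtpbp1*-/- library lies below every other RNA library for this gene (log2 fold change -0.73, SE 0.0818, edgeR adjusted p 5.94e-05). *Gtpbp1* footprints were 73.9, 116 and 85.6 in B6J, 31.7, 25.4 and 36.1 in B6J.*Gtpbp1*-/-, and 79.3, 66.2 and 61.8 in B6J-*Gtpbp2*-/-. Here too the B6J.*Gtpbp1*-/- libraries are the lowest 3 of the 9 (log2 fold change -1.57, SE 0.227, edgeR adjusted p 0.00676). RNA of *Gtpbp1* is lower and not absent, and from which exons these reads come was not examined.

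*Gtpbp2* RNA was 85.6, 73.8 and 87.8 CPM in B6J, 109, 101 and 104 in B6J.*Gtpbp1*-/-, and 65.6, 75.5 and 72.9 in B6J-*Gtpbp2*-/-. The B6J-*Gtpbp2*-/- values overlap those of B6J (log2 fold change -0.22, SE 0.0925, edgeR adjusted p 0.190), and a point mutation need not lower the RNA. In B6J.*Gtpbp1*-/- all 3 values lie above B6J, and *Gtpbp2* RNA rose (log2 fold change 0.34, SE 0.0828, edgeR adjusted p 0.0154). Footprints of *Gtpbp2* were 44.9, 36.0 and 38.8 in B6J, 35.9, 43.1 and 59.2 in B6J.*Gtpbp1*-/-, and 28.9, 26.2 and 7.51 in B6J-*Gtpbp2*-/-. The 3 B6J-*Gtpbp2*-/- libraries are the lowest of the 9 (log2 fold change -0.97, SE 0.443, edgeR adjusted p 0.321). Between the mutants *Gtpbp2* RNA was called (log2 fold change 0.55, edgeR adjusted p 0.0360), with the libraries apart. Against B6J the label of B6J.*Gtpbp1*-/- is therefore carried by *Gtpbp1* in both assays. That of B6J-*Gtpbp2*-/- has only the order of the footprint libraries, without a call. Groups lie apart for 22.5% of all genes in that comparison, so this order says little about the label.

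Across the 10 genes, levels in B6J can be compared as TPM, the unit that takes transcript length into account. *Gabra6* was the highest at 890.2 ± 47.7 TPM (mean ± SD of 3), apart from *Cbln1* at 813 ± 34.9. *Cbln1* overlaps *Calb2* at 708 ± 96.5, which in turn overlaps *Cbln3* at 561 ± 56.0. *Neurod1* at 423 ± 47.6 and *Zic1* at 416 ± 9.70 overlap each other and lie below *Cbln3*. Below them and apart from one another come *Etv1* at 249 ± 14.0, *Zic2* at 137 ± 7.28, *Pax6* at 101 ± 9.96 and *Neurod2* at 49.7 ± 3.14. The receptor subunit, the cerebellins and calretinin are thus above the transcription factors in control cerebellum.

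In both mutants the order begins with calretinin. *Calb2* was at 1159.8 ± 65.0 TPM in B6J.*Gtpbp1*-/- and at 1157 ± 113 in B6J-*Gtpbp2*-/-, apart from the other 9 genes in each. *Cbln1* followed at 527 ± 46.8 and 523 ± 67.1, and overlaps *Gabra6* at 466 ± 56.0 and 486 ± 13.2 in each mutant. Footprints per kilobase of coding sequence give another order in B6J, where the 6 genes from *Cbln3* (1178 ± 426) down to *Zic1* (558 ± 126) each overlap the next. *Pax6* was the lowest of the 10 by this measure at 37.1 ± 5.72. The *Pax6* values rest on 109 to 352 footprints per library, while *Calb2* has 3276 to 12206.

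Relative to RNA, footprints of the 10 genes in B6J span a wide range. The ratio of footprint density to TPM, on the log2 scale and set against the median of 12960 genes, was highest for *Cbln3* (1.19) and *Zic2* (1.09). It was lowest for *Etv1* (-1.47) and *Pax6* (-1.27), below which lie 11.4% and 14.8% of genes. These 2 factors have many transcripts in the files, 13 for *Etv1* and 26 for *Pax6*, and the part of untranslated transcripts in this ratio was not tested.

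Several members are read from more than 1 transcript. *Gabra6-203* held 71.3% of *Gabra6* TPM in B6J, beside 71.1% with loss of *Gtpbp1* and 69.1% with loss of *Gtpbp2*. *Cbln1-203*, a transcript without a coding sequence, held 28.7%, 27.8% and 27.2% of *Cbln1* in the same order. For *Zic1* the TPM of *Zic1-202* was 71.6, 84.8 and 58.2 in B6J, 13.8, 10.9 and 28.3 in B6J.*Gtpbp1*-/-, and 71.5, 33.7 and 4.63 in B6J-*Gtpbp2*-/-. The TPM of this transcript, shorter than *Zic1-201*, is lower in every B6J.*Gtpbp1*-/- library than in B6J, and the B6J-*Gtpbp2*-/- libraries are spread over the whole range. The main transcript *Zic1-201* was at 283, 297 and 316 TPM in B6J, 279.9, 277 and 318 in B6J.*Gtpbp1*-/-, and 284, 312 and 259 in B6J-*Gtpbp2*-/-, with overlap of all groups. Transcript shares were not put through a test. *Neurod1* and *Neurod2* have 1 transcript each in the files, and *Cbln3* has 2, of which *Cbln3-201* holds nearly all TPM.

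On GRCm38 (Gencode M21) the members lie on 6 chromosomes, and no member overlaps another. *Gabra6* (chr11:42306437-42321072) and *Neurod2* (chr11:98325415-98329648) are both on the minus strand of the same chromosome. *Neurod1* (chr2:79452521-79456751, minus strand) shares 201 exonic bases with *Cerkl* on its own strand and 154 with *Gm26755* on the other. *Zic1* (chr9:91358058-91365810, minus strand) shares 60 exonic bases with *Zic4*, which is read in the opposite direction. The TruSeq v2 kit used for RNA does not mark the strand, so reads from those bases cannot be told apart. *Cbln1* and *Pax6* overlap *Gm2694* and *Pax6os1* on the opposite strand, without shared exonic bases.

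Loss of *Gtpbp1* was accompanied by lower RNA of most members and by higher RNA of calretinin. The fall was deepest for the receptor subunit and for *Cbln1*. *Zic2* alone among the 10 was not called. These are bulk measurements, in which fewer granule neurons and less RNA per granule neuron cannot be told apart. The paper describes apoptotic granule cells at an age later than that sampled here, and granule cell numbers were not tested here.

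In B6J.*Gtpbp1*-/- against B6J, edgeR called 9 of the 10 members in RNA (8 lower, 1 higher), where 13.8% of the 24577 genes tested were called, 7.93% lower and 5.90% higher. Of all genes called, 42.6% were higher, which became 54.9% with upper quartile scaling and 75.2% by limma on TPM, so the balance of directions over all genes depends on the scaling. DESeq2 called 9 as well. The median log2 fold change of the members was -0.50 (range -1.08 to 0.54), beside 0.03 for all genes tested. In 9 of the 10 the mutant and B6J libraries did not overlap in CPM, where 31.9% of all genes had groups apart. Both shares are far above those of all genes. The members are abundant, with 2391 or more RNA counts in every library. Shares among genes of like abundance are not given for this or the other comparisons. With limma on log2 TPM 5 members were called, and leaving out single libraries gave 7 to 9.

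*Gabra6* RNA was 849.6, 849 and 976 CPM in B6J and 379.9, 413 and 475 in B6J.*Gtpbp1*-/- (log2 fold change -1.08, SE 0.103, edgeR adjusted p 1.60e-05). All 3 mutant values are far below all 3 control values, and the groups do not overlap. *Cbln1* RNA was 790.3, 734 and 799 in B6J and 449.9, 394 and 461 in the mutant (log2 fold change -0.84, SE 0.0897, edgeR adjusted p 4.26e-05). Again the mutant libraries are the low ones without overlap. *Cbln3*, its partner, was at 1635, 1735 and 1439 in B6J and at 1071, 966 and 1178 in the mutant (log2 fold change -0.59, edgeR adjusted p 0.00165). The 3 mutant libraries lie below the lowest control. All 3 genes were called under each of the 17 alternatives, with adjusted p from 2.00e-26 to 0.00191 for *Gabra6*, 1.96e-20 to 0.00479 for *Cbln1* and 4.60e-08 to 0.0432 for *Cbln3*.

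*Neurod1* RNA was 455, 533 and 579.8 CPM in B6J and 309, 309.8 and 341 in B6J.*Gtpbp1*-/- (log2 fold change -0.71, SE 0.0981, edgeR adjusted p 3.31e-04). Every mutant library is below every control library, and the gene was called in 17 of 17 alternatives (adjusted p 2.93e-12 to 0.0153). The related *Neurod2* fell by 0.63 on the log2 scale (SE 0.113, edgeR adjusted p 0.00287; 9.33e-11 to 0.0821 over the alternatives). It was not called with all 9 RNA libraries in the model (0.0728) or by limma on TPM. Both factors were lower in RNA, with the more abundant *Neurod1* the steadier of the pair across settings.

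*Calb2* RNA was 456, 561 and 621 CPM in B6J and 844, 752 and 788 in B6J.*Gtpbp1*-/- (log2 fold change 0.54, SE 0.108, edgeR adjusted p 0.00503). Calretinin is thus high in each mutant library and low in each control, the opposite of the other called members. It was called under all 17 alternatives (adjusted p 6.46e-07 to 0.0340).

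The remaining transcription factors moved less. *Etv1* fell by 0.42 on the log2 scale (SE 0.0998, edgeR adjusted p 0.0126; 2.19e-04 to 0.104 over the alternatives), and without B6J replicate 2 it was not called (0.0584). *Pax6* fell by 0.33 (SE 0.0761, edgeR adjusted p 0.0114; 0.00158 to 0.348), and the call ended without mutant replicate 1 (0.0527) or 2 (0.0629), with the length offset (0.0629), protein-coding transcripts (0.0623) and limma on TPM (log2 fold change -0.16). The log2 fold changes were -0.26 to -0.34 in these settings other than limma. Its TPM values, 81.8, 90.6 and 97.7, overlap those of B6J, 90.6, 102 and 110.5. *Zic1* fell by 0.32 (SE 0.0903, edgeR adjusted p 0.0345; 0.00236 to 0.176), a call met in only 6 of 17 alternatives and lost when any 1 library was left out except mutant replicate 3. *Zic2* was at 161, 178 and 172 CPM in B6J and at 191, 169 and 178 in the mutant, with overlapping libraries (log2 fold change 0.07, SE 0.0754, edgeR adjusted p 0.648; 0.120 to 0.917). In TPM its groups were apart, at 129, 143 and 139.9 in B6J and 166, 152 and 158 in the mutant. Within the zinc finger pair, then, *Zic1* is a weak call and *Zic2* is not called in any setting.

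**Figure D1:**
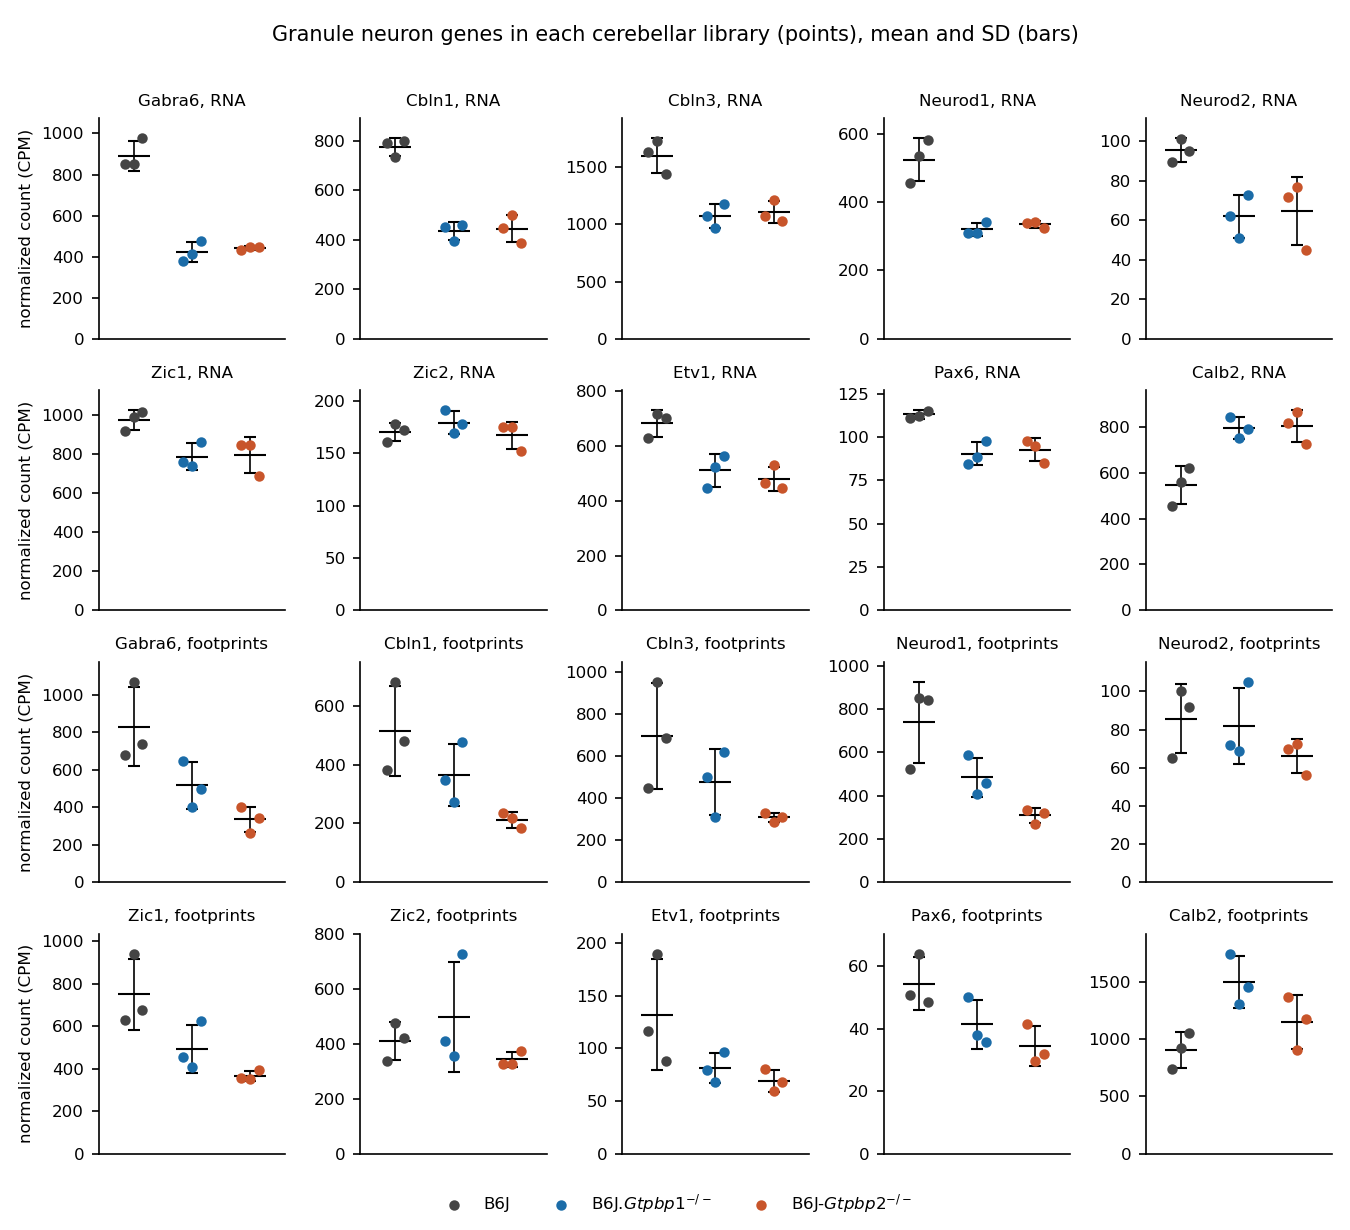
RNA and footprint levels of the 10 genes in each library, in CPM on an axis that starts at 0, with B6J, B6J.*Gtpbp1*-/- and B6J-*Gtpbp2*-/- by colour; points are libraries and bars are mean ± SD. *Gabra6* and *Cbln1* are low and *Calb2* is high in RNA of both mutants.

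With loss of *Gtpbp2*, set against the same B6J libraries, RNA of 6 members fell and that of 1 rose. The receptor subunit and *Cbln1* again fell most among the 10. Calretinin rose, and the calls on the less abundant factors depended on the setting.

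Here edgeR called 7 of the 10 members in RNA (6 lower, 1 higher), where 8.63% of the 24859 genes tested were called, 5.02% lower and 3.61% higher (41.8% of calls higher, 53.3% with upper quartile scaling and 77.2% by limma on TPM). The median of the members was -0.53 (range -1.02 to 0.55), beside 0.03 for all genes. In 9 of the 10 the groups did not overlap in CPM, where 28.6% of genes had groups apart. The share of members is well above that of all genes on each measure. DESeq2 called 9 members, the sex covariate left 5, limma on log2 TPM 4, and leaving out B6J replicate 1 left 4.

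*Gabra6* RNA was 431, 445 and 448 CPM in B6J-*Gtpbp2*-/-, beside 849.6, 849 and 976 in B6J (log2 fold change -1.02, SE 0.0885, edgeR adjusted p 8.15e-05). The mutant libraries are all low and lie close together. *Cbln1* RNA was 449, 498 and 387 in the mutant, beside 790.3, 734 and 799 (log2 fold change -0.81, SE 0.104, edgeR adjusted p 8.45e-04). The groups are again apart, with the mutant low. *Neurod1* RNA was 339, 342 and 323 in the mutant, beside 455, 533 and 579.8 (log2 fold change -0.65, SE 0.0980, edgeR adjusted p 0.00217). No mutant library reaches the lowest control. These 3 genes were called in 17 of 17 alternatives, with adjusted p from 1.11e-29 to 0.00165 for *Gabra6*, 1.14e-12 to 0.0204 for *Cbln1* and 6.81e-09 to 0.0357 for *Neurod1*.

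*Cbln3* RNA was 1078, 1217 and 1033 CPM in B6J-*Gtpbp2*-/-, beside 1635, 1735 and 1439 in B6J (log2 fold change -0.54, edgeR adjusted p 0.00774; 2.05e-06 to 0.0797 over the alternatives). The groups do not overlap, but without B6J replicate 1 the gene was just outside the threshold (0.0502), and by limma on TPM it was not called either (log2 fold change -0.38, adjusted p 0.0759 and 0.0797). *Calb2* was at 817, 864 and 726, beside 456, 561 and 621 (log2 fold change 0.55, SE 0.118, edgeR adjusted p 0.0153; 3.64e-05 to 0.0769). All 3 mutant libraries are above all controls. The call on *Calb2* ended without B6J replicate 1 (0.0769) or 2 (0.0622), without mutant replicate 2 (0.0545) and with the sex covariate (0.0608). Its log2 fold changes in these settings were 0.43 to 0.56.

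*Etv1* fell by 0.51 on the log2 scale in B6J-*Gtpbp2*-/- (SE 0.0953, edgeR adjusted p 0.00771; 2.97e-06 to 0.0665). *Pax6* fell by 0.29 (SE 0.0788, edgeR adjusted p 0.0426; 0.0115 to 0.520), and its call ended when any 1 library was left out except mutant replicate 1 (0.0765 to 0.186). It also ended for *Pax6* with upper quartile scaling (0.0771), sex (0.104), the length offset (0.156), protein-coding transcripts (0.0544) and limma on TPM (log2 fold change -0.12), and its TPM values overlap B6J. The log2 fold changes were -0.25 to -0.30 in these settings other than limma. Values for *Zic1* (log2 fold change -0.30, edgeR adjusted p 0.0915; 0.0210 to 0.290) and *Neurod2* (-0.57, 0.114; 0.00629 to 0.327) did not pass, though DESeq2 called both. *Zic2* overlapped B6J (log2 fold change -0.03, edgeR adjusted p 0.872; 0.364 to 0.990). The factors thus range from *Neurod1*, called in all settings, to *Zic2*, called in none.

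Tested directly against each other, the mutants gave no call in the RNA of any member. EdgeR called 0 of the 10, none had an unadjusted p below 0.05, and DESeq2 called 0, where edgeR called 0.0595% of 25190 genes. The log2 fold changes ran from -0.06 to 0.10 with a median of -0.03, beside 0.00 for all genes. *Gabra6* was at -0.06 (SE 0.0965, edgeR adjusted p 1.000), with adjusted p of all members at 0.915 to 1.000 over the alternatives. For 0 of the 10 were the groups apart, beside 8.92% of all genes. An absence of calls among 10 genes is close to the share of all genes here, so it says little about these members in particular.

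**Figure D2:**
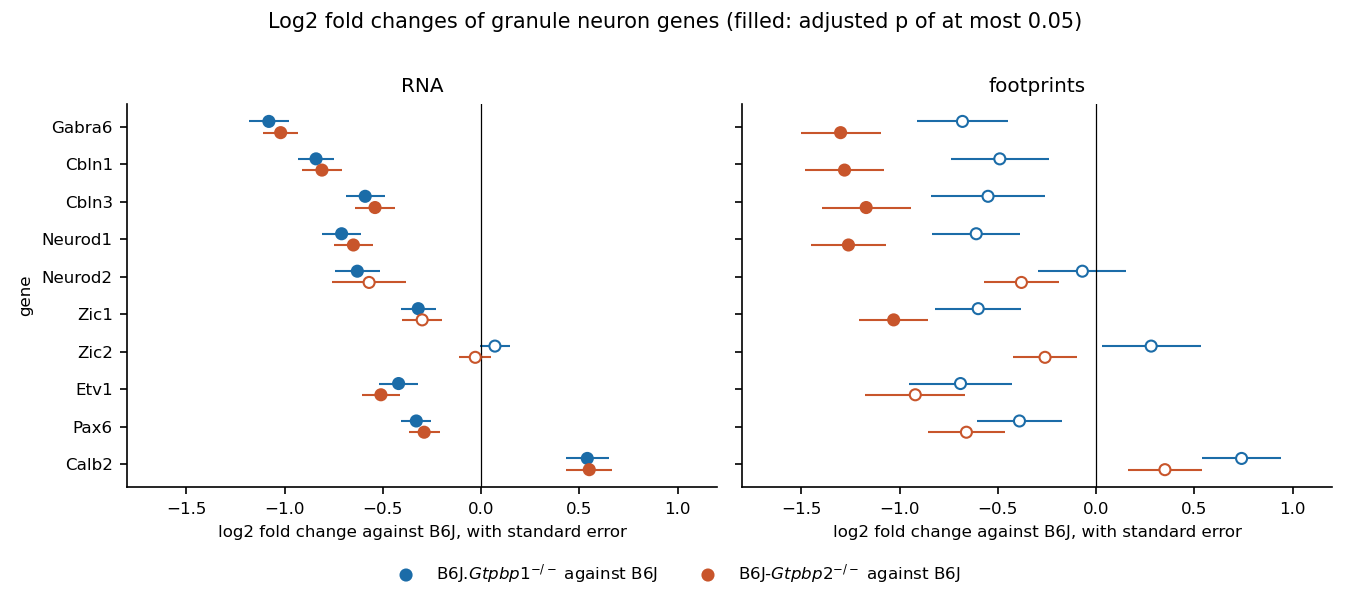
Log2 fold change ± SE of the 10 genes in each mutant against B6J, for RNA (left) and footprints (right), with filled points where the edgeR adjusted p is at most 0.05. In RNA most points left of 0 are filled in both mutants, and in footprints the filled points all belong to B6J-*Gtpbp2*-/-.

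Footprints of the 10 genes in B6J.*Gtpbp1*-/- spread more between replicates than RNA did. No member was called, though 8 of the 10 had values below 0. Calretinin was again the member with the highest value.

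With edgeR 0 of the 10 members were called in footprints of B6J.*Gtpbp1*-/- against B6J, where 0.745% of 13956 genes were called. Unadjusted p was below 0.05 for 5 of the 10 members, beside 1763 of the 13956 genes, and DESeq2 called 1, *Calb2*. The median was -0.52 (range -0.69 to 0.74), beside 0.01 for all genes. Groups were apart in 3 of the 10, *Gabra6*, *Zic1* and *Calb2*, beside 18.0% of all genes, which at this number of genes is not far from the background. A count of 0 is likewise near the share of all genes called, while the share of members with unadjusted p below 0.05 is above that of all genes.

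*Calb2* footprints were 736, 923 and 1052 CPM in B6J and 1745, 1303 and 1451 in B6J.*Gtpbp1*-/- (log2 fold change 0.74, SE 0.201, edgeR adjusted p 0.117; 0.0215 to 0.430 over the alternatives). The mutant libraries are above all controls without passing the threshold. *Gabra6* footprints were 681, 1069.5 and 735 in B6J and 648, 399 and 499.8 in the mutant (log2 fold change -0.68, SE 0.232, edgeR adjusted p 0.216; 0.113 to 0.637). Mutant replicate 1 comes close to the lowest control, and the groups are barely apart. The other 8 had values from -0.69 (*Etv1*) to 0.28 (*Zic2*), and for *Zic2* and *Neurod2* the sign depended on the setting.

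Footprints in B6J-*Gtpbp2*-/- fell for the receptor subunit, both cerebellins, *Neurod1* and *Zic1*. Their values are the lowest 5 of the 10 in this assay. The B6J footprint libraries differ among themselves, with replicate 2 the highest for these 5 genes.

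In this comparison edgeR called 5 of the 10 members, all lower, where 2.94% of 13797 genes were called and 1.67% were called lower. DESeq2 called 6. The median of the members was -0.98 (range -1.30 to 0.35), beside 0.01 for all genes, and 9 of the 10 lay below 0. Groups were apart in 7 of the 10, beside 22.5% of all genes. Both shares are above those of all genes. Leaving out single libraries gave 3 to 6 calls, and with sex as a covariate 1 was left, *Neurod1*, while the other 4 had log2 fold changes of -0.87 to -1.17.

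*Gabra6* footprints were 399, 263 and 344 CPM in B6J-*Gtpbp2*-/-, beside 681, 1069.5 and 735 in B6J (log2 fold change -1.30, SE 0.204, edgeR adjusted p 0.00378; 3.34e-07 to 0.0997 over the alternatives). All mutant libraries are low and none overlaps the controls. *Cbln1* footprints were 237, 218 and 183, beside 382, 683 and 481 (log2 fold change -1.28, SE 0.203, edgeR adjusted p 0.00395; 9.26e-07 to 0.0997). The groups are apart here as well, and the control values are the scattered ones. *Cbln3* footprints were 329, 287 and 312, beside 450.0, 953 and 685 (log2 fold change -1.17, SE 0.227, edgeR adjusted p 0.0141; 5.10e-05 to 0.203). Mutant libraries are tightly grouped below the lowest control. The *Cbln3* call ended without mutant replicate 1 (0.0795), 2 (0.0852) or 3 (0.0504), at log2 fold changes of -1.22, -1.11 and -1.17.

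*Neurod1* footprints were 334, 270.2 and 318 CPM in B6J-*Gtpbp2*-/-, beside 524, 851 and 843 in B6J (log2 fold change -1.26, SE 0.192, edgeR adjusted p 0.00291). The mutant group is low and apart, and all 13 alternatives called the gene (2.34e-07 to 0.0357). *Zic1* footprints were 358, 349.8 and 393, beside 628, 941 and 677 (log2 fold change -1.03, SE 0.176, edgeR adjusted p 0.00547; 8.70e-06 to 0.137). Its mutant libraries are all below its controls, and the call ended without mutant replicate 1 (0.0559) or 2, at log2 fold changes of -1.01 and -0.99. With sex as a covariate *Gabra6* was at -1.12 (edgeR adjusted p 0.0997), *Cbln1* at -1.17 (0.0997), *Cbln3* at -1.14 (0.203) and *Zic1* at -0.87 (0.137), so the calls ended while the values moved little. By Y-linked genes 2 of the 3 B6J footprint libraries are male and all B6J-*Gtpbp2*-/- libraries are female.

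Members outside the 5 calls had values from -0.92 (*Etv1*) to 0.35 (*Calb2*) in footprints of B6J-*Gtpbp2*-/-. *Etv1* (edgeR adjusted p 0.0816; 0.00630 to 0.807 over the alternatives) was called by DESeq2 (0.0121), without a filter (0.0444) and without B6J replicate 3 (0.00630). *Calb2*, called in RNA, was at 1371, 907 and 1172 CPM beside 736, 923 and 1052, and these footprint libraries overlap (edgeR adjusted p 0.366).

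Between the mutants, footprints of 0 of the 10 members were called by edgeR, where 0% of 14142 genes were called. Unadjusted p was below 0.05 for 6 of the 10 members, beside 1523 of the 14142 genes. DESeq2 called 0 members, and their median was 0.47 (range 0.22 to 0.77) beside 0.00 for all genes. The highest value was that of *Cbln1*, at 347, 273 and 479 CPM in B6J.*Gtpbp1*-/- and 237, 218 and 183 in B6J-*Gtpbp2*-/- (log2 fold change 0.77, edgeR adjusted p 0.261; 0.0654 to 0.789 over the alternatives). The groups do not overlap for *Cbln1*, *Neurod1* and *Zic1*, 3 of the 10, beside 16.1% of all genes. A deeper loss of footprints in 1 mutant than in the other was therefore not called for any member.

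Translation efficiency, the change in footprints beyond the change in RNA, was tested as an interaction of assay and genotype. For B6J.*Gtpbp1*-/- edgeR called 0 of the 10, where 0% of 13086 genes were called (unadjusted p below 0.05 for 0 members, DESeq2 0). For B6J-*Gtpbp2*-/- it called 0, where 0.00773% of 12931 genes were called (unadjusted 3, DESeq2 0). Between the mutants it called 0, where 0% of 13292 genes were called (unadjusted 4, DESeq2 1). The medians of the members were 0.16, -0.38 and 0.43, beside 0.03, 0.03 and 0.01 for all genes. Over all genes tested, unadjusted p was below 0.05 for 1170, 1554 and 1483 genes in the same order. With so few calls among all genes, counts of 0 do not set the members apart. The few calls depend on the libraries: without B6J replicate 3 edgeR called 18 genes in B6J.*Gtpbp1*-/- and 42 in B6J-*Gtpbp2*-/-, and without B6J-*Gtpbp2*-/- replicate 3 it called 32 between the mutants, with 0 members in each.

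The gene that DESeq2 called between the mutants was *Neurod1* (log2 0.72, adjusted p 0.0341). EdgeR gave *Neurod1* 0.71 with an adjusted p of 0.284 (0.0341 to 0.613 over the alternatives). *Cbln1* had the highest value of the 10 between the mutants, 0.81 (edgeR adjusted p 0.302; 0.0983 to 0.631). *Zic1* in B6J-*Gtpbp2*-/- had the lowest value, -0.72 (edgeR adjusted p 0.244; 0.0573 to 0.529). EdgeR thus called no member for translation efficiency, although 9 of the 10 values lie below 0 in B6J-*Gtpbp2*-/- and 0 of the 10 between the mutants.

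Among 10667 genes, the RNA profile of *Gabra6* over the 9 libraries was nearest to that of *Olfm3* (distance 0.150), followed by *Necab3* (0.290) and *Tuba4a* (0.309). *Olfm3* had a mean CPM of 322 in B6J, beside 152 in the *Gtpbp1* and 165 in the *Gtpbp2* mutant. *Cbln1* was at rank 46 from *Gabra6* (0.505) and *Calb2* at rank 10183 (2.31). Calretinin is near the far end of the order.

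Other genes of the granule neuron were read as a list of 16, none of which is among the 10. In RNA, edgeR called 10 of them in B6J.*Gtpbp1*-/- (9 lower, 1 higher, median -0.40) and 9 in B6J-*Gtpbp2*-/- (8 lower, 1 higher, median -0.38), with 0.03 as the median of all genes in each. Over the alternatives these counts were 6 to 11 and 5 to 12. Summed RNA of the list was 4560.1, 4866 and 4306 CPM in B6J, 3576, 3594 and 4075 in B6J.*Gtpbp1*-/-, and 3681, 3895 and 3436 in B6J-*Gtpbp2*-/-. Both mutants are below B6J in each library, and *Fat2* is the most abundant gene of the list. Lower RNA was thus also seen in this list, in comparisons where 13.8% and 8.63% of all genes were called. The list was chosen with earlier results of these data known, so it is not an independent check.

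*Slc17a7*, the vesicular glutamate transporter of granule neurons, had log2 fold changes of -0.68 in B6J.*Gtpbp1*-/- (edgeR adjusted p 1.04e-04) and -0.68 in B6J-*Gtpbp2*-/- (0.00193). The potassium channel gene *Kcnd2* had -0.75 (edgeR adjusted p 5.20e-05) and -0.72 (7.77e-04). *Cadps2*, a gene of secretory vesicle release, had -0.83 (edgeR adjusted p 2.08e-04) and -0.83 (3.10e-04). *Grin2c* (-0.53 and -0.50), *Svop* (-0.55 and -0.43) and *En2* (-0.37 and -0.32) were called in both mutants as well, and *Tlx3* (-1.02, edgeR adjusted p 0.0361) in B6J.*Gtpbp1*-/-. The exception in direction was *Mef2a*, a transcription factor gene, with 0.62 (edgeR adjusted p 2.09e-04) and 0.43 (0.0122). Like calretinin among the 10, *Mef2a* is higher where most of its list is lower.

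Footprints of the same 16 genes gave 0 calls in B6J.*Gtpbp1*-/- with edgeR (unadjusted p below 0.05 for 11, DESeq2 4, median -0.66). In B6J-*Gtpbp2*-/- 7 were called, all lower (median -0.72), with 2 to 9 over the alternatives and 2 under the sex covariate. Summed footprints were 5049.8, 6217 and 4503 CPM in B6J, 3205, 2777 and 3918 in B6J.*Gtpbp1*-/-, and 3239, 3193 and 2329.5 in B6J-*Gtpbp2*-/-. The sums of both mutants are below all B6J sums. Translation efficiency was called for 0 of the 16 in each of the 3 comparisons (unadjusted 3, 6 and 3; DESeq2 1, 1 and 0).

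Granule precursor genes number 8, of which 7 were tested in RNA. EdgeR called 0 in RNA of B6J.*Gtpbp1*-/- (unadjusted 2, DESeq2 1, median -0.15) and 1, *Gli1*, in B6J-*Gtpbp2*-/- (log2 fold change -0.44, edgeR adjusted p 0.0425, median of the list 0.02). Over the alternatives these counts were 0 to 3 and 0 to 2. In footprints 0 were called in either mutant (unadjusted 2 and 0, DESeq2 0 and 0). Their RNA summed to 313, 392 and 323 CPM in B6J, 285, 304 and 351 in B6J.*Gtpbp1*-/-, and 287, 310.4 and 305 in B6J-*Gtpbp2*-/-, led by *Ptch1*. Footprint sums were 133, 183 and 145, 126, 142 and 188, and 156, 173 and 117 in that order, and the groups overlap in footprints. In RNA all 3 B6J-*Gtpbp2*-/- sums lie below all B6J sums, as for the granule list, while those of B6J.*Gtpbp1*-/- overlap B6J. *Ptch1*, which leads this sum, was at 216, 221 and 219.6 CPM in B6J-*Gtpbp2*-/- and 232, 308 and 234 in B6J. The median of the list is 0.02 in that mutant, unlike the granule list. *Atoh1*, the factor of dividing precursors, had 0 footprints in every library.

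Relatives of the members by family were mixed. Of 5 other GABA-A receptor subunit genes, 3 were called in RNA of each mutant, all lower and *Gabrd* among them, with medians of -0.37 and -0.29 (2 to 4 and 1 to 4 over the alternatives). *Gabrd*, whose protein pairs with α6 outside synapses and which is also among the 16 granule genes, had -0.66 and -0.73 in RNA. Its footprints in B6J-*Gtpbp2*-/- were the 1 call of that list in the assay (log2 fold change -1.59, edgeR adjusted p 0.00441), with 0 to 2 over the alternatives and 0 with sex as a covariate, and in B6J.*Gtpbp1*-/- edgeR called 0 (unadjusted 1, DESeq2 0). *Nrxn2*, a neurexin gene, was called in RNA of both mutants, at -0.46 (edgeR adjusted p 0.00634) and -0.40 (0.0320). The *Nrxn2* call in B6J-*Gtpbp2*-/- ended without B6J replicate 1 or 2, without mutant replicate 2 or 3, and with sex as a covariate. Among receptor subunits the fall in RNA thus reaches past *Gabra6*.

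Among 3 other Zic genes *Zic4*, a further gene of the granule list, was called in RNA of both mutants, at -0.42 (edgeR adjusted p 0.00424) and -0.60 (0.00712), and edgeR called 0 in footprints of either mutant (unadjusted 0 and 0, DESeq2 0 and 0). The medians of the 3 in RNA were -0.20 and -0.16, and 0 to 1 of them were called over the alternatives in each mutant. Of 8 proneural factor and E protein genes, 6 were tested in RNA and 0 were called in either mutant (unadjusted 2 and 0, DESeq2 0 and 0, medians 0.01 and 0.04), nor were any in footprints (unadjusted 0 and 0, DESeq2 0 and 0). In the Etv family *Etv4* (-0.62, edgeR adjusted p 0.0136) fell and *Etv5* (0.47, edgeR adjusted p 0.0199) rose in RNA of B6J.*Gtpbp1*-/-, with 0 to 2 calls over the alternatives. With loss of *Gtpbp2* 0 Etv genes were called by edgeR (unadjusted 2, DESeq2 2). Of 2 other Pax genes 0 were called in RNA (unadjusted 0 and 1, DESeq2 0 and 0). In footprints edgeR called 0 Etv genes (unadjusted 0 and 1, DESeq2 0 and 0) and 0 Pax genes (unadjusted 0 and 0, DESeq2 0 and 0). Relatives of the nuclear factors were therefore called in few cases and in both directions.

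Calretinin has relatives among calcium buffers of other cerebellar neurons. *Pvalb* RNA fell in both mutants (log2 fold change -0.41, edgeR adjusted p 0.00664, and -0.59, 0.00500). *Calb1*, which is also a Purkinje cell marker, was called in B6J-*Gtpbp2*-/- (-0.37, edgeR adjusted p 0.0422). Over the alternatives 0 to 1 and 0 to 2 of these genes were called. For each mutant a setting that kept all libraries called 0 of them, so the *Pvalb* call ended there too. The *Pvalb* call in B6J.*Gtpbp1*-/- ended without mutant replicate 2, and that of *Calb1* ended with sex as a covariate and without B6J replicate 1 or 2 or mutant replicate 1 or 3. In footprints 0 of these 2 genes were called in either mutant (unadjusted 0 and 1, DESeq2 0 and 1). *Pvalb* footprints were 2458, 2283 and 2545 CPM in B6J-*Gtpbp2*-/- beside 1586, 924 and 1808 in B6J, and those of *Calb1* were 3528, 3065 and 2995 beside 2147, 1009 and 2917. For both genes these mutant footprint libraries lie above all controls. The rise of *Calb2* in RNA is thus not shared by either gene. Unipolar brush cells also make calretinin, and of 5 other genes of these cells edgeR called 1 in RNA of B6J.*Gtpbp1*-/-, *Eomes* (-1.35, edgeR adjusted p 0.00454). With loss of *Gtpbp2* it called 2, *Plcb4* (-0.41) among them. The medians were -0.20 and -0.39, the former 0.07 under limma on TPM, and the counts were 1 to 3 and 0 to 3 over the alternatives. Their RNA summed to 654, 727 and 586 CPM in B6J, 495, 495 and 596 in B6J.*Gtpbp1*-/-, and 494, 514 and 473 in B6J-*Gtpbp2*-/-, led by *Plcb4*. Footprints summed to 709.7, 565 and 778, 768, 771 and 422, and 842, 850.5 and 676, with 0 genes called in either mutant (unadjusted 0 and 0, DESeq2 0 and 0). The part of unipolar brush cells in the rise of *Calb2* was not tested.

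Markers of other cells show how the tissue samples differ, and the part of these cells in the values of the 10 genes was not tested. Purkinje cell genes, 8 with *Itpr1* the most abundant, gave 2 calls in RNA of B6J.*Gtpbp1*-/- (median -0.25) and 3 in B6J-*Gtpbp2*-/- (median -0.39), with 0 to 5 and 0 to 7 over the alternatives. Without B6J replicate 1 the latter count was 0. Their RNA summed to 9861, 11097 and 8222 CPM in B6J, 8085, 7148 and 9241 in B6J.*Gtpbp1*-/-, and 7351, 8231 and 6799 in B6J-*Gtpbp2*-/-. Footprints summed to 10300.3, 6883 and 14035, 12825, 13714 and 7877, and 15306, 15431 and 12830.0, with 0 called in either mutant (unadjusted 1 and 1, DESeq2 0 and 1). In footprints the Purkinje sum is lowest in the B6J and B6J.*Gtpbp1*-/- libraries where the sum of the 10 genes is highest, at 6249 in B6J replicate 2 and 5092 in B6J.*Gtpbp1*-/- replicate 3. In B6J-*Gtpbp2*-/- the lowest Purkinje sum, in replicate 3, does not fall on the highest sum of the 10 genes, 3549 in replicate 1.

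Inhibitory interneuron genes, 8 led by *Gad1*, gave 4 calls (1 higher) and 3 calls (1 higher) in RNA, with *Lgi2* the higher one at 0.40 and 0.41. The medians were -0.35 and -0.39, and the counts were 1 to 5 and 0 to 7 over the alternatives. RNA of the 8 genes summed to 1251, 1343 and 1136 CPM in B6J, 1244, 1052 and 1108 in B6J.*Gtpbp1*-/-, and 1151, 1059.7 and 1013 in B6J-*Gtpbp2*-/-. Footprints summed to 1747, 1230.0 and 2272, 1481, 2024 and 1332, and 1829, 2033 and 2156, with 0 called (unadjusted 0 and 1, DESeq2 0 and 0). The sums overlap between genotypes in both assays.

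Among 7 astrocyte and Bergmann glia genes, 4 were called in RNA of each mutant, with *Gfap* higher (1.35 and 1.22) and *Slc1a3*, the most abundant, lower (-0.45 and -0.44). The medians were -0.10 and -0.11, which became 0.05 and 0.01 under limma on TPM, and the counts were 2 to 4 and 1 to 4 over the alternatives. RNA of the 7 genes summed to 4383, 4702 and 3973 CPM, 4209, 3743 and 4194, and 4119.9, 4159 and 3914 in the order B6J, B6J.*Gtpbp1*-/- and B6J-*Gtpbp2*-/-. Footprints summed to 4280.2, 4859 and 4920.1, 4559, 4927 and 6624, and 4976, 4251 and 5236, with 0 called (unadjusted 2 and 2, DESeq2 1 and 1). The glial sums are alike in RNA, while *Gfap* is high in both mutants.

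Oligodendrocyte genes, 6 in number, were all called lower in RNA of B6J.*Gtpbp1*-/- (median -0.44), with 1 to 6 over the alternatives and 2 to 5 when 1 library was left out. In B6J-*Gtpbp2*-/- edgeR called 0 (unadjusted 0, DESeq2 0, median -0.02, and 0.12 under limma on TPM). Tested directly between the mutants, 0 were called (unadjusted 5, DESeq2 1, median -0.39). Their RNA summed to 11571, 10215 and 11809 CPM in B6J, 8664, 8704 and 7473 in B6J.*Gtpbp1*-/-, and 12528, 9405 and 10064 in B6J-*Gtpbp2*-/-, led by *Mbp*. Footprints summed to 10821, 9480.4 and 14558, 14287, 12356 and 11054, and 13692, 14503 and 12869, with 0 called (unadjusted 0 and 0, DESeq2 0 and 0). A lower sum is thus seen in RNA of B6J.*Gtpbp1*-/- and not in its footprints.

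Among 7 microglial genes several rose in RNA of both mutants. EdgeR called 5 in RNA of B6J.*Gtpbp1*-/- (median 0.80) and 4 in B6J-*Gtpbp2*-/- (median 0.77), all higher, with 4 to 6 over the alternatives in each. *C1qa* had 1.37 (edgeR adjusted p 3.45e-06) and 1.32 (8.98e-05) in RNA, and it was the 1 call of the list in footprints of each mutant (edgeR adjusted p 0.0305 and 0.00683) (0 to 4 and 0 to 2 over the alternatives). Summed RNA was 121, 118 and 129 CPM in B6J, 239.9, 211 and 207 in B6J.*Gtpbp1*-/-, and 208, 214 and 226 in B6J-*Gtpbp2*-/-. Footprints summed to 270.3, 300.0 and 260.2, 720.3, 391 and 653, and 398, 352 and 504. Every mutant library is above every B6J library in both assays.

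Of 4 endothelial genes, led by *Flt1*, 3 were called higher in RNA of B6J.*Gtpbp1*-/- (median 0.47) and 2 in B6J-*Gtpbp2*-/- (median 0.64), with 1 to 4 over the alternatives in each. In footprints *Cldn5* was the 1 call in each mutant (1.42, edgeR adjusted p 0.0209, and 1.41, 0.00395), with 0 to 2 and 0 to 3 over the alternatives. Endothelial RNA summed to 123, 123 and 125 CPM, 161, 171 and 182, and 140.1, 202 and 224 in the order B6J, B6J.*Gtpbp1*-/- and B6J-*Gtpbp2*-/-. Footprints summed to 279.7, 177 and 314, 664, 492 and 370.1, and 581, 487 and 454. The endothelial sums of both mutants lie above those of B6J.

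Choroid plexus, blood, bone and muscle were read as lists as well. Of 4 choroid plexus genes 0 were called in RNA or footprints of either mutant (unadjusted 0, DESeq2 0 in each). Their sum, led by *Ttr*, was 1775, 1178 and 254 CPM in RNA of B6J, 1757, 1298 and 375 in B6J.*Gtpbp1*-/-, and 67.9, 1090.2 and 697 in B6J-*Gtpbp2*-/-. In footprints it was 5670.4, 3797 and 62.7, 13629.6, 207 and 12296, and 491, 9482 and 9638. Of 5 erythroid genes, led by *Hbb-bs*, 1 was called in RNA of B6J.*Gtpbp1*-/-, *Alas2* (0.92, edgeR adjusted p 0.0138; 0 to 5 calls over the alternatives), and 0 in B6J-*Gtpbp2*-/- (unadjusted 0, DESeq2 0). The choroid plexus sums differ widely within each genotype.

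Erythroid RNA summed to 1396, 773 and 1101 CPM, 1652, 1444 and 1816, and 328, 1538 and 815 in the order B6J, B6J.*Gtpbp1*-/- and B6J-*Gtpbp2*-/-. Erythroid footprints summed to 619.8, 454 and 1005, 2219, 729.6 and 1349, and 955, 3161 and 757, with 0 called (unadjusted 1 and 0, DESeq2 1 and 0). In RNA all 3 erythroid sums of B6J.*Gtpbp1*-/- lie above all B6J sums, and with sex as a covariate all 5 genes were called there. Of 6 bone and skeletal muscle genes, led by *Col1a2* in RNA and *Col1a1* in footprints, 0 were called in RNA (unadjusted 0 and 0, DESeq2 0 and 0) or in footprints (unadjusted 4 and 1, DESeq2 2 and 1). Their sums were 107, 114 and 81.3, 104, 139 and 109, and 81.1, 129 and 105 CPM in RNA. In footprints they were 274, 664 and 888, 1557, 1359 and 2681, and 602, 963 and 471. Bone and muscle footprints are higher in each B6J.*Gtpbp1*-/- library than in any B6J library. Between the mutants edgeR called 0 genes of each of the 12 marker lists in RNA, where DESeq2 called 1, in the oligodendrocyte list, and unadjusted p was below 0.05 for 5 oligodendrocyte genes, 1 granule gene and 0 of the other lists. In footprints edgeR called 0 as well, and DESeq2 called 4 bone and muscle genes (unadjusted 5 of 5 tested, median 2.29), 1 astrocyte gene (unadjusted 2) and 0 of the others. Unadjusted p in footprints was below 0.05 for 5 granule, 3 microglial, 2 interneuron and 1 precursor gene and for 0 of the remaining lists.

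**Figure D3:**
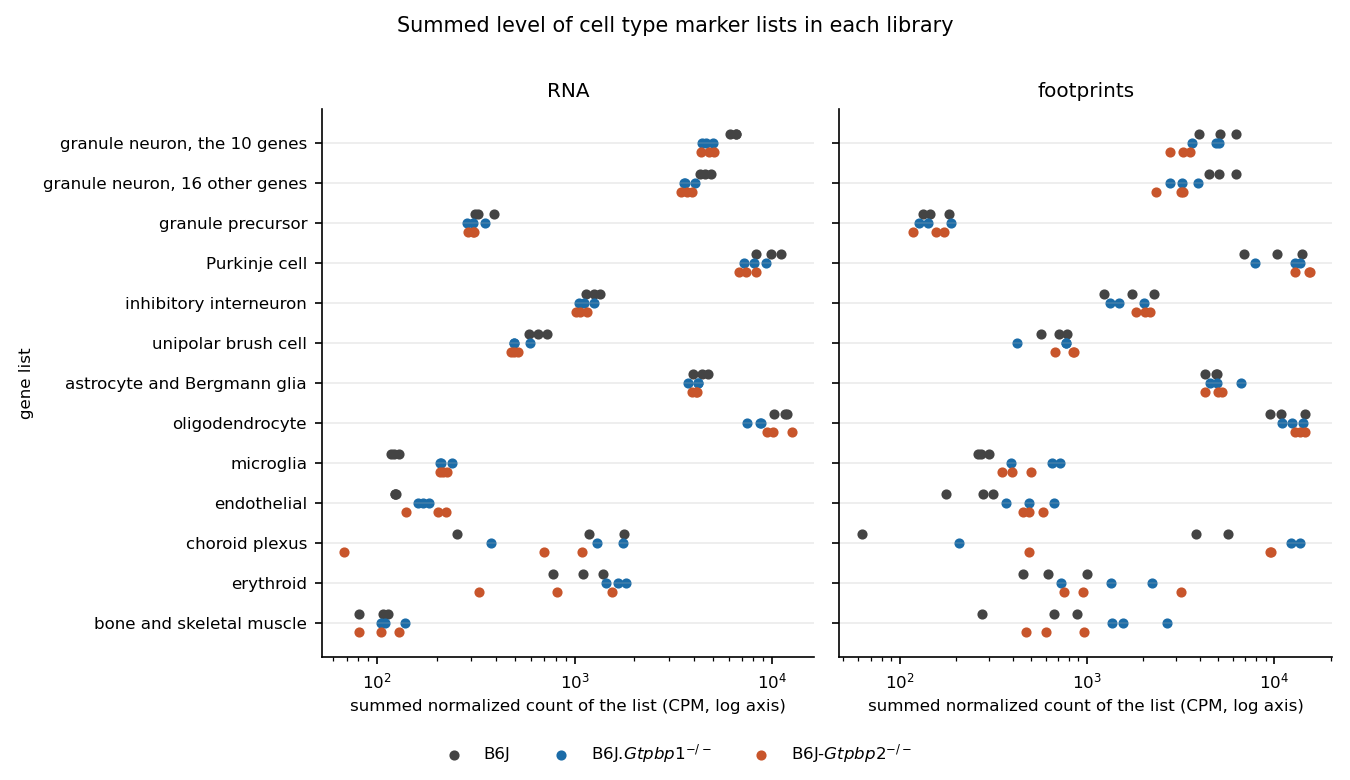
Summed CPM on a log axis of the 10 genes and of 12 marker lists, for RNA and footprints, with 1 point per library and genotypes by colour. Sums of the other granule neuron genes are lower and microglial sums higher in both mutants, while choroid plexus sums scatter within each genotype.

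Because the tRNA affected in B6J reads AGA, the AGA codons of the members were counted in the longest complete coding sequence of each gene (Gencode M21). The members had a median of 5.39 AGA codons per 1000, beside 10.2 for 13762 genes, and 6 of the 10 lie below that median. *Pax6* has 12 among 436 codons (27.5 per 1000), more than 94.5% of genes. *Etv1* has 7 among 477 codons (14.7) and *Gabra6* 5 among 453 (11.0). *Cbln1* has 1 among 193, and *Cbln3* and *Neurod2* have none, as is so for 8.42% of genes. *Calb2*, which rose in RNA, has 3 among 271 (11.1). A link between AGA content and the change in RNA was not tested, and positions of footprints along these codons are not part of the files.

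For *Pax6* and *Gabra6* the window of 60 bases within 1 exon that holds the most AGA codons is shown 5′→3′ on GRCm38, with AGA codons in capitals. They are shown as the member with most AGA codons and the member with the deepest fall in RNA. The *Pax6* window lies at chr2:105692485-105692544 on the plus strand in exon 10 and holds 4 AGA codons. The *Gabra6* window lies at chr11:42317704-42317763 on the minus strand in exon 4 and holds 1.
Pax6: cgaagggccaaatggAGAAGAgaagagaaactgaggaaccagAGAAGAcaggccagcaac
Gabra6: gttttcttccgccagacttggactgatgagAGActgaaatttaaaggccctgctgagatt

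Promoters of 7 members could be matched to RefSeq starts on GRCm38.p6, and those of *Cbln1*, *Zic2* and *Calb2* could not. The NFI motif TTGGCA, read as TGCCAA on the other strand, was searched for on both strands, since NFI factors act on granule neuron genes. It occurs in 12.5% of 27025 promoters, and among the 7 it occurs 1 time in *Gabra6*, 1 time in *Cbln3* and 2 times in *Neurod2*. The E-box CAGATG, bound by NeuroD factors, occurs in 14.5% of promoters and 1 time among the 7, in *Neurod2*. It is itself a case of the wider E-box CANNTG, found in 66.0% of promoters, and it does not overlap the NFI motifs. The ETS motif CCGGAA (12.2% of promoters), the Zic motif CAGCAGG (8.34%) and TATAAA (13.0%) occur in none of the 7. *Etv1* and *Pax6* have 2 promoters each, of which 1 is read here.

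The promoter parts upstream of the gene are shown for the 3 genes with an NFI motif, 5′→3′ on the strand of the gene, which is the minus strand in each. Capitals mark TGCCAA, and in *Neurod2* also CAGATG. *Gabra6* is given at chr11:42321073-42321322, *Cbln3* at chr14:55884393-55884506 and *Neurod2* at chr11:98329649-98329895 (RefSeq, GRCm38.p6). A match of letters describes the sequence and not binding.
Gabra6: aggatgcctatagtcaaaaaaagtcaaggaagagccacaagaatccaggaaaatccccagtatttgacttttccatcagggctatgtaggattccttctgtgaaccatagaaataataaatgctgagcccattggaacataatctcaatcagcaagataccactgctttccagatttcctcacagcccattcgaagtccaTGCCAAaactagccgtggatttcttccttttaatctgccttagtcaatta
Cbln3: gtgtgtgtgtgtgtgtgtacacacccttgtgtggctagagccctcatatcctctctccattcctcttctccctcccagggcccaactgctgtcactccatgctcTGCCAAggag
Neurod2: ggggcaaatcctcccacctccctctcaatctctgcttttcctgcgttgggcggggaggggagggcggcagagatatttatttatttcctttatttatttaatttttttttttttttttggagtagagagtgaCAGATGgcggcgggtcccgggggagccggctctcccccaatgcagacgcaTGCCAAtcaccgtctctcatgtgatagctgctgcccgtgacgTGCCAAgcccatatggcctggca

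The 10 genes thus divide by direction. RNA of *Gabra6*, *Cbln1*, *Cbln3*, *Neurod1* and *Etv1* fell in both mutants, and RNA of *Calb2* rose in both. These calls in B6J-*Gtpbp2*-/- were met in 14 of 17 alternatives for *Cbln3*, 15 for *Etv1* and 13 for *Calb2*, and in B6J.*Gtpbp1*-/- in 14 for *Etv1*. *Pax6* RNA was called lower in both, in 11 and 6 of 17 alternatives. RNA of *Zic1* (6 of 17) and *Neurod2* (14 of 17) fell by the edgeR test in B6J.*Gtpbp1*-/-, and *Zic2* was called in neither mutant. With 3 libraries per group that differ among themselves in footprints, small differences may not be called. The files hold no numbers of granule neurons and no protein levels, and the cell counts by histology in the paper were not used here.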

How the data were processed

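RNA values are estimated counts and TPM per transcript that the authors made with kallisto 0.42.4 and deposited. Footprint values are counts per gene over coding sequence that the authors made with Bowtie2 2.2.3, HISAT2 2.1.0 and featureCounts on mm10 and deposited. Estimated counts were summed per gene and rounded. Each pair of genotypes was fitted with edgeR 4.0.16 (quasi-likelihood, robust, TMM) over all genes that reached 5 counts in 3 or more of its 6 libraries. P values were adjusted by Benjamini-Hochberg, and a gene was called at an adjusted p of at most 0.05. Fold changes are on the log2 scale, and the log2 CPM behind the profile distances had a prior count of 2. Translation efficiency was the interaction of assay and genotype over 12 libraries, where 3 or more of 6 libraries per assay held 10 counts or more, without genes of prefix Hist. Levels are CPM scaled by TMM over the 9 libraries of an assay. SE is the fold change over the square root of F.

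Library totals were 37794333 to 52114145 in RNA and 3630823 to 10442573 in footprints. Raw RNA counts of the 10 genes were 2391 or more in every library, and footprint counts were 109 or more.

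The members and lists were chosen with earlier results of these data known. Named are all 10 members, related and other granule genes that passed in an RNA comparison with B6J (at most 20 by smallest adjusted p), and from each marker list of another cell type the most abundant gene and at most 4 that passed. For *Gabra6* the 3 genes nearest in centred log2 CPM among those with a mean of at least 10 CPM are named. Isoforms named are the most abundant in B6J and others with at least 1 TPM and 10% of the gene. Some genes that this rule names are not reported here. Sex was read from Y-linked genes at 5 CPM. Sequences come from RefSeq (GRCm38.p6) and Gencode M21.

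Alternatives were DESeq2 1.42.0, upper quartile scaling, other filters, all libraries in 1 model, a replicate block, a length offset, limma 3.58.1 on log2 TPM (pseudocounts 0.5 and 0.1), protein-coding transcripts, sex as a covariate, and leaving out each library. The scripts were tested on simulated data. R 4.3.3, Python 3.11.15, numpy 2.4.6, pandas 2.3.3, scipy 1.17.1 and matplotlib 3.10.9 were used.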

Additional observations from a re-analysis of the deposited data

How the results depend on the processing

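Of 1260 fits of members under alternatives, 1201 gave the same call, 52 were weaker, 7 stronger and 0 reversed, and 48 had the other sign with neither called. Of 1734 fits of other named genes 1428 were the same and 0 reversed. In RNA of B6J.*Gtpbp1*-/- 9 members were called, beside 5 and 5 by limma on TPM (pseudocounts 0.5 and 0.1), 8 with a replicate block and 7 to 9 when 1 library was left out. In RNA of B6J-*Gtpbp2*-/- 7 became 4 and 4 by limma, 5 with sex, 9 by DESeq2, 7 with the replicate block and 4 to 7 with 1 library left out, lowest without B6J replicate 1. In footprints of B6J.*Gtpbp1*-/- 0 became 1 by DESeq2 and was 0 with the replicate block. In footprints of B6J-*Gtpbp2*-/- 5 became 1 with sex as a covariate, 3 to 6 with 1 library left out (3 without mutant replicate 1 or 2), and was 5 with the replicate block. Translation efficiency between the mutants went from 0 to 1 by DESeq2. Same-numbered libraries did not pair (27 pairs, 6 with r above 0.1, -0.37 to 0.19). The cause of these differences was not tested.

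Over all genes, 3398 calls in RNA of B6J.*Gtpbp1*-/- were 2156 and 2056 by limma, 2237 with the replicate block, 2227 with the length offset and 1890 to 3798 with 1 library left out. In B6J-*Gtpbp2*-/- 2146 were 3409 by DESeq2, 1071 with sex, 1363 with the offset, 971 and 871 by limma and 953 to 2357 with 1 left out. Footprint calls in B6J.*Gtpbp1*-/-, 104, were 406 by DESeq2, 213 without a filter, 213 with all 9 libraries, 44 with the replicate block, 56 with sex and 22 to 186 with 1 left out. In B6J-*Gtpbp2*-/- 406 were 655 by DESeq2, 261 with all 9 libraries, 45 with sex and 106 to 619 with 1 left out. Between the mutants 15 calls in RNA were 46 by DESeq2, 36 without a filter and 5 for protein-coding transcripts. In footprints 0 became 100 by DESeq2, 15 without a filter and 33 without B6J-*Gtpbp2*-/- replicate 3. For translation efficiency DESeq2 called 58, 160 and 155 genes where edgeR called 0, 1 and 0, and edgeR with 1 library left out called 0 to 18, 0 to 42 and 0 to 32. All 18 libraries in 1 model gave 11 in B6J-*Gtpbp2*-/-. The share of calls that were higher in RNA went from 42.6% and 41.8% to 54.9% and 53.3% under upper quartile scaling and to 75.2% and 77.2% by limma with 0.5. The median of all genes went from 0.03 to 0.16 and 0.15, while that of the members was -0.37 and -0.38 by limma.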
